A study of Caenorhabditis elegans with 2 samples.

Results

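Introns of protein-coding genes held 924 of the 5000 strongest binding positions of the tagged protein F37B4.10 in whole Caenorhabditis elegans worms. These 924 members were chosen from the authors' joint ranked peak list of 115634 rows, which combines both replicates. The 5000 rows of highest signal, a number the authors gave each peak without stating its scale, were taken first. A row was then kept if its summit, the point of highest enrichment, lay inside a protein-coding transcript and in no exon of any gene. Summits in promoters, set at 1000 bp before to 200 bp after any protein-coding start, were left out, as were those closer than 200 bp to genes for tRNAs, snRNAs or snoRNAs. Signal therefore chose the members and is given as a description only.

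Chromatin immunoprecipitation followed by sequencing (ChIP-seq) with an antibody against GFP was carried out on young adults aged 61 h, in 1 group of 2 biological replicates. The strain, OP374, carried the integrated transgene wgIs374, with F37B4.10 fused to TY1, EGFP and 3xFLAG tags and an unc-119(+) rescue gene, in the unc-119(tm4063) background. Worms had been synchronised by bleaching and starvation as L1 larvae, no treatment was named, and chromatin was sonicated to 200-800 bp. Both replicates carried the transgene, a control library was not analysed here, whole worms mix all tissues, and read depth is unknown.

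Introns of C. elegans are mostly short and rich in A and T, while the long introns of neuronal and developmental genes can hold enhancers, genes for noncoding RNAs and repeats. A ChIP-seq peak inside an intron marks DNA recovered with the tagged protein and does not show that the gene around it is regulated. Tandem repeats are stretches in which a unit follows itself head to tail. The worm's telomeres consist of the unit TTAGGC, and copies of that unit also occur inside chromosomes.

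The windows of the strongest members differed in the words they repeated. Each sequence below is the summit base with 50 bp to either side, plus strand, from the RefSeq copy of the WBcel235 assembly, the same sequence as the ce11 assembly of the peak lists. The windows are cmk-1 (chrIV:1831322-1831422), epg-9 (chrIV:2602137-2602237), mom-1 (chrX:6296479-6296579), stim-1 (chrIII:415616-415716), clec-80 (chrIV:2825693-2825793), mdt-26 (chrII:5661811-5661911) and Y41G9A.17 (chrX:2997047-2997147). Capitals mark the most frequent word of 6 bases in a window, overlaps counted, where it occurred at least 3 times; of words with equal counts, the first in the alphabet is marked.
cmk-1: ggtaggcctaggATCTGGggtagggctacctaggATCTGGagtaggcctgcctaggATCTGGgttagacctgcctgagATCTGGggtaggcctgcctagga
epg-9: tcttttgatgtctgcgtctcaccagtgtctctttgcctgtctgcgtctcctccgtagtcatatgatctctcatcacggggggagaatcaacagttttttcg
mom-1: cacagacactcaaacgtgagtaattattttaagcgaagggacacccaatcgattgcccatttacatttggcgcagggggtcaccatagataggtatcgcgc
stim-1: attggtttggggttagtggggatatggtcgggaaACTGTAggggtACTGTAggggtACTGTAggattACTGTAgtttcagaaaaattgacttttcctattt
clec-80: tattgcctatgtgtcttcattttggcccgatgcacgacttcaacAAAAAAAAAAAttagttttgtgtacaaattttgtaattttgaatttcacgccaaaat
mdt-26: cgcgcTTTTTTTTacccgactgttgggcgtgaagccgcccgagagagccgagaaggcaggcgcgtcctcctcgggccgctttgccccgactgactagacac
Y41G9A.17: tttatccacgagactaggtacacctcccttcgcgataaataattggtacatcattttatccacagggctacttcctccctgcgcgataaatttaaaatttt
In cmk-1 the word ATCTGG, 1 of 4 words found 4 times, stood in a tandem array with a period of 22 bp, and in stim-1 ACTGTA, 1 of 2 such words, recurred. The capitals in clec-80 and mdt-26 are single runs of A and of T. The windows in epg-9, mom-1 and Y41G9A.17 held no word 3 times.

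A further set of members carried many copies of CGGCAA or its reverse complement TTGCCG, marked in capitals in the windows gex-2 (chrIV:574718-574818), hum-8 (chrIV:436246-436346), cul-6 (chrIV:12589463-12589563) and srw-100 (chrV:1713904-1714004). They are shown because the word lay in 14.6% of members and 6.28% of eligible intron windows, defined further on.
gex-2: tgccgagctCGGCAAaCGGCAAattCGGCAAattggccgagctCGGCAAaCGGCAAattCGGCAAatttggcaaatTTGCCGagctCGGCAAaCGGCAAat
hum-8: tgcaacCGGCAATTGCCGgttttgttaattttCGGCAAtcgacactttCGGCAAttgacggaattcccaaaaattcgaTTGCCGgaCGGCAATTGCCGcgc
cul-6: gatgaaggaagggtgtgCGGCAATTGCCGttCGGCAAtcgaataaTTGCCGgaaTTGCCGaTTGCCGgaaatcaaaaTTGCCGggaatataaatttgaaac
srw-100: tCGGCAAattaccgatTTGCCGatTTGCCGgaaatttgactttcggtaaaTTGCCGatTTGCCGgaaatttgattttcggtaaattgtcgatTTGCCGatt
The gex-2 window held 9 copies, the windows in hum-8 and cul-6 7 copies each, and that in srw-100 6 copies. Both orientations of the word occurred in each of them, as the capitals show.

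Copies of the telomere unit TTAGGC, or GCCTAA on the other strand, filled the windows R12A1.3 (chrV:1423383-1423483) and unc-51 (chrV:19998284-19998384). They are shown for their many copies of the unit.
R12A1.3: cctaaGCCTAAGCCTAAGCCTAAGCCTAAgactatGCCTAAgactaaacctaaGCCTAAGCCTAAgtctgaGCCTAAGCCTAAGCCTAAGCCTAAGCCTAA
unc-51: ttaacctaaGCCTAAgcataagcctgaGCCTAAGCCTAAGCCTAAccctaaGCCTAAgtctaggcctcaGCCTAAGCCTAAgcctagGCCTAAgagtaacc
The window in R12A1.3 held 12 copies and that in unc-51 held 8, and both read GCCTAA on the plus strand.

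Other tandem arrays are shown for F01D5.10 (chrII:14019650-14019750), Y38F2AR.10 (chrIV:2398399-2398499) and lin-42 (chrII:1250501-1250601). Capitals again mark the most frequent word of 6 bases.
F01D5.10: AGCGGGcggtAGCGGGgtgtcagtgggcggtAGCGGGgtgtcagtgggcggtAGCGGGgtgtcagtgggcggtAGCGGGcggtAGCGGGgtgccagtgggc
Y38F2AR.10: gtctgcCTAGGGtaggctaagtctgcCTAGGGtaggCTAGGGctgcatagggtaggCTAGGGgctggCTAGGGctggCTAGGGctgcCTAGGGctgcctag
lin-42: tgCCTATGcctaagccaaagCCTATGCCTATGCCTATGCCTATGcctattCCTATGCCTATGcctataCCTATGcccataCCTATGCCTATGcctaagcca
The F01D5.10 window matched itself at a shift of 21 bp over 86.3% of its positions and was 74.3% G or C. The array in lin-42 had a period of 30 bp and an identity of 85.9%, and 4 words occurred 10 times in it.

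The largest group of members with common sequence comprised zipt-15 (chrIV:813449-813549), Y41D4A.7 (chrIV:1756462-1756562) and eat-2 (chrII:14167096-14167196). Capitals mark a run of 66 bp present in all 3, which reads on the opposite strand in eat-2.
zipt-15: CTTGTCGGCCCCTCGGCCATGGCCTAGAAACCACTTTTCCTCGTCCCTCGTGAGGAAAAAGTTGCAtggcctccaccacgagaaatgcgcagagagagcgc
Y41D4A.7: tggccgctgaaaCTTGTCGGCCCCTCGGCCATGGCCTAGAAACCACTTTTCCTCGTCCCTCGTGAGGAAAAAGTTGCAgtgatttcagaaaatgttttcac
eat-2: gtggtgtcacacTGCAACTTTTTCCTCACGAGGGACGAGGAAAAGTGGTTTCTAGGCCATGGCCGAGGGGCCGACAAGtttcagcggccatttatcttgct
The central 51 bp of the Y41D4A.7 window occurred 235 times in the genome and those of the eat-2 window 223 times. How the authors placed reads from such copies is not given in the sources used here.

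Signals of the 924 members ran from 52.2 to 187, with a median of 58.3. The other 4076 rows had a median of 58.7 and reached 1494, so the members lacked the highest values of the list. The member at the top lay in intron 2 of cmk-1, which encodes a calcium/calmodulin-dependent protein kinase. Its signal was 187 in the joint list, 132.8 in the list of replicate 1 and 63.01 in that of replicate 2. Replicate 1 thus stood well above replicate 2 at this position. The signals of a replicate's own list are on that list's scale and were compared with the joint list in no test.

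The next 3 members had similar values in both replicates. In intron 2 of epg-9, an autophagy gene, the joint signal was 155, with 74.96 in replicate 1 and 83.6 in replicate 2. In intron 7 of mom-1, the Porcupine homologue needed for Wnt secretion, it was 151, with 88.6 and 71.0. In intron 4 of stim-1, a sensor of calcium in the endoplasmic reticulum, it was 151, with 74.4 and 72.5. These 3 were also among the 4 members that passed the authors' own threshold in each replicate's list. The fourth lay in ifc-1, an intermediate filament gene, with signals of 100.8 in the joint list, 47.9 in replicate 1 and 59.0 in replicate 2. This gene lies close to F37B4.10 itself, a locus described next.

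The transgene adds copies of F37B4.10 and unc-119 to the genome, and intronic summits were dense around the former. Within 50 kb of F37B4.10 on chromosome V lay 10 members, or 456 per Mb of eligible intron, against 34.9 per Mb over all eligible introns. They comprised ifc-1, folt-2 (signal 94.6, with 39.6 in replicate 1 and 45.2 in replicate 2), ugt-53, T03D3.5 and the chemoreceptor genes srh-272, srh-240, srj-57, srh-127, srj-55 and str-39. The members in folt-2 and str-39 lay nearest, 0.874 and 1.43 kb from F37B4.10. Their joint signals ran from 52.9 in str-39 to 100.8 in ifc-1, and 5 of the 10 were in the conservative list. A further member, with a signal of 53.999, lay within unc-119 (26.1 in replicate 1 and 29.4 in replicate 2). It was the only member within 50 kb of that gene, or 22.4 per Mb of eligible intron. The transgene's extent and copy number were not given in the sources used here, and their part in these signals was not tested.

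Members in clec-80, mdt-26, srw-100 and Y41G9A.17 followed, with joint signals of 127, 111, 110.5 and 106. The clec-80 member, in a gene of the C-type lectin family, had 41.6 in replicate 1 and 77.1 in replicate 2. That in mdt-26, a subunit gene of the Mediator complex, had 71.9 and 52.9. The chemoreceptor gene srw-100 showed 49.1 and 58.1, and Y41G9A.17 showed 44.4 and 61.9. Which replicate was higher therefore changed from member to member. Over the 815 members found in both replicates, replicate 1 had the higher value in 243 (29.8%). The rank correlation (Spearman) of their 2 signals was -0.280. The joint signal had chosen these members and each list has its own scale, so both values are a description.

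**Figure D1:**
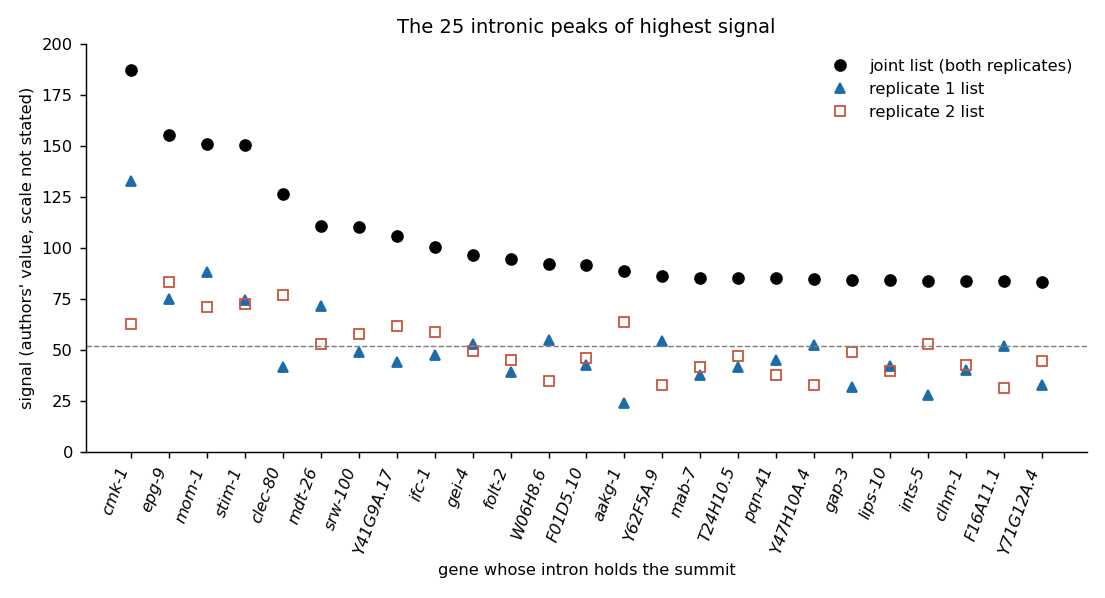
Signal (authors' value, y axis) of the 25 intronic members of highest signal, each named by its host gene on the x axis, in the joint list (filled circles), the list of replicate 1 (triangles) and that of replicate 2 (open squares); the dashed line is the lowest joint signal of any member, 52.2. cmk-1 leads with 187, and in aakg-1 replicate 2 (63.7) lies far above replicate 1 (24.0).

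Between joint signals of 83.6 and 96.6 came the other 16 of these 25 members. They lay in gei-4, folt-2, W06H8.6, F01D5.10, aakg-1, Y62F5A.9, mab-7, T24H10.5, pqn-41, Y47H10A.4, gap-3, lips-10, ints-5, clhm-1, F16A11.1 and Y71G12A.4. Their known products are diverse and include a folate transporter family member (folt-2), a Ras GTPase-activating protein (gap-3) and an Integrator subunit (ints-5). In aakg-1, which encodes a gamma subunit of AMP-activated kinase, the joint signal was 88.9, with 24.0 in replicate 1 and 63.7 in replicate 2. The aakg-1 window also held 6 copies of CGGCAA. Of the 25 members, 5 had a tandem repeat by the measure described further on.

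Members just inside and just outside the limit of 5000 rows had nearly the same signal. Inside were znf-236 (52.23), rgl-1 (52.21), pyk-1 (52.19), F54G2.1 (52.17) and pll-1 (52.17). The next intronic summits outside were in ador-1 (52.14), marc-5 (52.14), srh-269 (52.12), btf-1 (52.10) and abts-1 (52.10). The limit thus cut through a continuous range of values.

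Few members passed the authors' reproducibility threshold, which rests on the irreproducible discovery rate (IDR), an estimate of the chance that a peak's rank is not shared by the inputs. The authors' conservative list held 126 of the 924 members, or 13.6% (exact 95% interval 11.5-16.02%), against 16.3% of all 5000 rows. The authors' other thresholded joint list held 155 members (16.8%, interval 14.4-19.3%), against 18% of all rows. The signals of the 126 conservative members ran from 54.9 to 187, with a median of 74.0. A conservative call and signal are not independent, since both come from the same joint data.

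Most members were present in each replicate's ranked list, which holds candidate peaks down to low signal. Replicate 1 had a summit at the same place (inside the peak interval) for 855 members (92.5%), against 92.3% of all rows, and replicate 2 for 883 (95.6%), against 95.4%. Both shares were near the background. Both replicates had 815 members and neither had 1, in srj-55, one of the chemoreceptor genes near F37B4.10. Signals in replicate 1 ran from 2.78 to 132.8 with a median of 26.7, and in replicate 2 from 11.5 to 83.6 with a median of 33.1.

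Many members were among the strongest rows of 1 replicate only, much as the joint list as a whole. The 5000 strongest rows of replicate 1 included 425 members (46%), against 49.7% of all 5000 joint rows, and those of replicate 2 included 501 (54.2%), against 55.8%. Both included 173 (18.7%), against 21.9%, and for 171 members (18.5%) neither did, against 16.4%. The joint signal chose the members and draws on both replicates, so these shares are given as a description. The thresholded list of replicate 1 held 9 members (0.974%), against 1.58% of all rows, and that of replicate 2 held 9, against 1.88%. Besides the 4 common ones, replicate 1's list held cmk-1, mdt-26, W06H8.6, Y62F5A.9 and hpo-38, and replicate 2's held Y41G9A.17, aakg-1, Y38F2AR.10, trip-4 and herc-1. The member in herc-1, with a joint signal of 68.1, was at 64.8 in replicate 2 and was not found in replicate 1.

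In 2 members the global IDR passed 0.01 and yet neither thresholded joint list held them. They lay in clec-80 and in Y54G2A.37, both near each other on chromosome IV, with joint signals of 127 and 71.8. Such rows made up 59 of all 5000. The Y54G2A.37 member had signals of 36.3 in replicate 1 and 38.1 in replicate 2.

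Introns held fewer summits per length than the genome as a whole. The intron bases that met the positional rule, called eligible below, covered 26.5 Mb, or 26.4% of the genome, and held 18.5% of the 5000 summits (exact 95% interval 17.4-19.6%). Their density was 34.9 summits per Mb, 0.699 times that of all summits. Coding sequence had 1.40 times the density of all summits, promoters 0.998 times, other exons 0.997 times and intergenic sequence 0.811 times. Sequence near tRNA, snRNA or snoRNA genes had 10.2 times. Among these 6 classes introns had the lowest density. Intervals cover counting error only, and neighbouring summits are not independent.

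**Figure D2:**
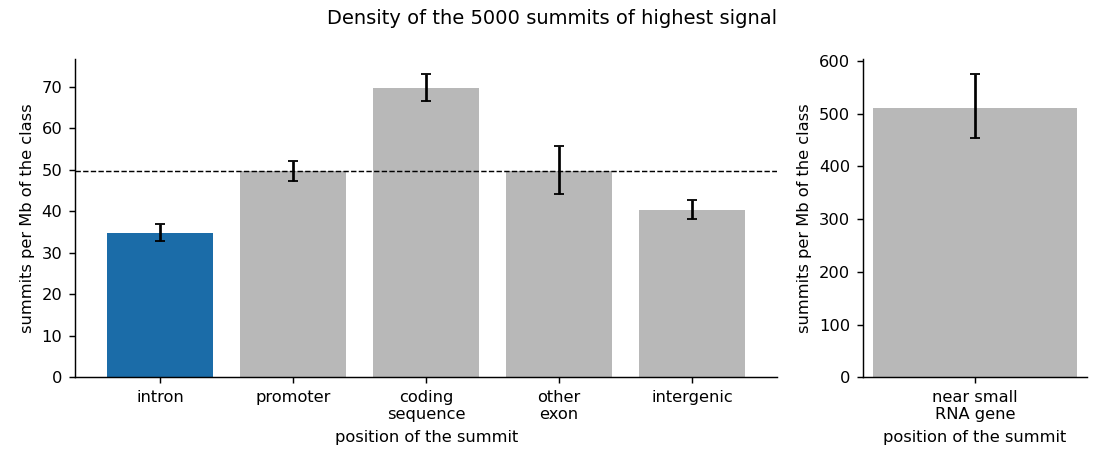
Summits per Mb of sequence (y axes, both from 0, of different scale) for the 5000 rows of highest signal, by position of the summit, with exact 95% intervals from the counts; the dashed line is the density over the genome. Introns, with 34.9 summits per Mb, are the lowest class, and sequence near small RNA genes, with 511 per Mb, is drawn apart.

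Members were spread over all 6 chromosomes. Their density ran from 30.6 per Mb of eligible intron on chromosome IV to 39.6 on chromosome II. The outer 25% of each chromosome at either end had 612 members, 40.5 per Mb, and the middle had 312, 27.4 per Mb. Relative to all eligible introns these were 1.16 and 0.785 times. Standardised to the GC content of windows of this length around the summit, over members whose whole window was eligible, observed over expected counts were 1.03 and 0.940.

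The members' GC content stood far above that of introns in general. Within 50 bp of the summit it had a median of 44.6%, with its 25% and 75% points at 39.6 and 50.5%. Eligible intron windows had a median of 31.7% (218539 windows), and the members' own flanks, 300 bp to each side, 37.6%. For 694 members the whole window was eligible, free of exon sequence, and their median was 46.5%. The other rows of the list had 47.5%, so a high GC content was not particular to introns. In 549 members (59.4%) the centre was richer in GC than both flanks, and in 100 (10.8%) poorer than both, while among other rows 71.0% were richer.

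**Figure D3:**
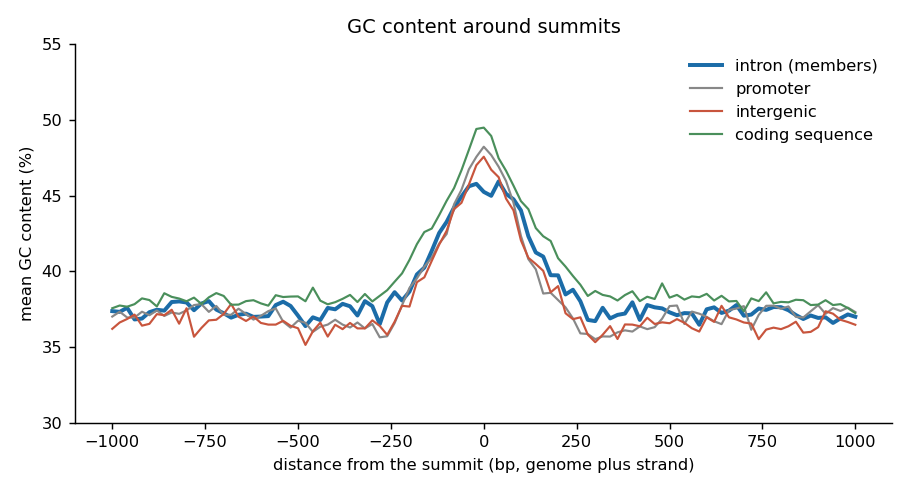
Mean GC content (y axis, percent, from 30) against distance from the summit (x axis, bp) for members and for promoter, intergenic and coding rows. Members reach 45.2% at the summit and fall to 37.7% and 36.7% at 300 bp to either side; the other classes peak higher, at 47.6 to 49.5%.

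Summits became more frequent with the GC content of the intron sequence in every step. Windows under 20% GC held 0.0734 members per 1000, those of 30 to 35% held 0.835, those of 45 to 50% held 14.5, and those of 60% or more held 94.6. The last class had 67 members in 708 windows. GC content can also affect recovery in library preparation and sequencing, and its part in these counts was not tested.

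**Figure D4:**
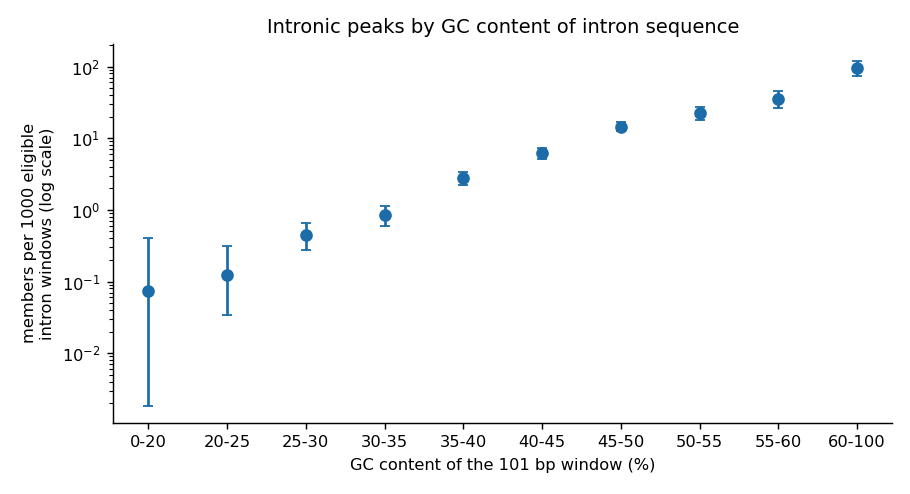
Members per 1000 eligible intron windows (y axis, log scale) by GC content of the window (x axis, percent), with exact 95% intervals. The value rises from 0.0734 in the lowest class to 94.6 in the highest.

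Repeats of CGGCAA were more frequent at the members than in intron sequence as a whole. At least 3 copies of the word, on either strand, lay within 50 bp of the summit in 66 members (7.14%, exact 95% interval 5.57-8.998%). Eligible windows had such repeats in 2.31%, the members' flanks in 3.36% and the other rows in 1.497%. Coding rows had them in 0.151% and intergenic rows in 4.56%. At equal GC content 31.2 of the members with a wholly eligible window would have held one, and 62 of 694 did, 1.99 times as many. The word was chosen after its frequency had been seen, so these values are a description.

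The 66 members with CGGCAA repeats had signals from 52.3 to 110.5, the highest in srw-100. Of the 66, replicate 1 had 59 and replicate 2 had 63, against 796 and 820 of the other 858 members. The conservative list had 9, and the repeat lay in 7.14% of conservative members, the same share as of all members. Soft-masked sequence, the repeats and low-complexity sequence marked in the assembly, held 62 of the 66. Among all soft-masked members 18.9% had the repeat, against 3.96% of soft-masked eligible windows. Only 3 of the 66 had a centre found more than once in the genome.

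The telomere unit was repeated at a smaller group of members. At least 3 copies of TTAGGC or GCCTAA lay at 19 members (2.06%, interval 1.24-3.19%), in 0.484% of eligible windows, 1.08% of flanks and 0.515% of other rows. At equal GC content 11.2 would have been found, and the observed count was 1.70 times that. This word, too, was chosen after the sequences had been seen. The conservative list held 3 of the 19, against 13.6% of all members. Each of the 19 lay in a different gene, and none also carried the CGGCAA repeat. The strongest were hecw-1, a HECT-type ubiquitin ligase gene (73.9, with 34.4 in replicate 1 and 36.5 in replicate 2), and tra-1, the zinc finger regulator of sex determination (72.6, with 26.1 and 48.8).

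Tandem repeats of any unit were counted by the share of positions equal to the base 5 to 40 bp further on. An identity of 70% or more at the best period was found in 64 members (6.93%, interval 5.38-8.76%). The same held for 1.88% of eligible windows, 3.68% of flanks and 3.73% of other rows, but for 12.7% of intergenic rows. At equal GC content 38.4 of the members with a wholly eligible window would have had one, and 62 did, 1.61 times as many. Among the 64, 15 carried CGGCAA repeats and 13 telomere units, and 15 had a centre with more than 1 genome copy. The highest identities were 97.8% in zyx-1, 95.8% in sax-7 and 95.3% in cua-1. One or more of the 3 kinds of repeat occurred in 121 members.

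**Figure D5:**
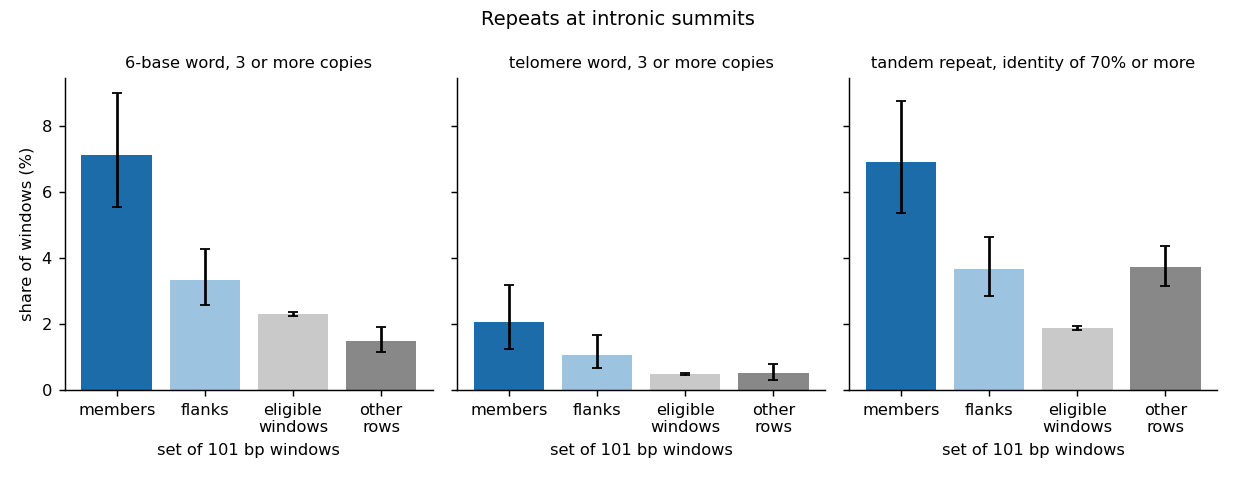
Share of windows reaching 50 bp to either side (y axis, percent) with at least 3 copies of the 6-base word, at least 3 copies of the telomere word, or a tandem repeat of 70% identity or more, for members, their flanks, eligible intron windows and the other rows, with exact 95% intervals. Members lead in each panel, with 7.14, 2.06 and 6.93%.

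Soft-masked bases as a whole were less frequent at summits than in introns. A soft-masked summit was found in 328 members (35.5%, interval 32.4-38.7%), while 52.7% of eligible bases were soft-masked. The other rows had 16.7%. Standardised to GC content, observed over expected members in soft-masked sequence were 1.03. Members with a soft-masked summit had a median signal of 57.6 and the others 58.5.

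Most members had a centre without an exact copy elsewhere in the genome. Copies that differed in any base were not counted, so diverged repeats could pass as single. The central 51 bp occurred more than once in the genome for 47 members (5.09%, interval 3.76-6.71%), against 5.62% of other rows. Among these 47 were members in sax-7, an L1-type adhesion gene (3 copies), and daf-2, the insulin receptor gene (2 copies). Only 5 members shared at least 50% of their words of 21 bases with another member. They were the 3 shown above in zipt-15, Y41D4A.7 and eat-2, and a pair in camt-1, a calmodulin-binding transcription activator gene, and C04E7.3. By either measure 49 members (5.30%, interval 3.95-6.95%) had sequence shared with another place.

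Other words searched on both strands differed in part from what base composition gave. The run TTTTTTTT lay in 5.41% of members and 20.2% of eligible windows, and TATAAA in 4.44% against 12.7%. GCGCGC lay in 4.22% against 0.871%, and CACGTG, the palindrome of the E-box type, in 3.57% against 1.32%. Over the 694 members with a wholly eligible window, and with eligible windows weighted to their GC content, the ratios of these 4 were 0.912, 0.815, 1.25 and 1.44. GAGAGA (6.06% against 3.91%), GGGCGG (4.11% against 1.68%), TGATAA (4.87% against 8.45%), CCAAT (17.6% against 18.4%), TTGGCA (8.44% against 6.83%), TGACGT (1.73% against 2.60%) and CACACACA (1.41% against 0.636%) complete the list. Weighted in the same way their ratios were 0.848, 0.703, 0.8905, 0.963, 1.36, 0.580 and 0.872. GGGCGG thus went from above to below 1, and TGACGT lay further below it than before weighting. None of the 924 windows matched the tRNA B box, the internal promoter element of tRNA genes, which allows a share of up to 0.398%; it was present in 0.883% of other rows. The rule had removed summits near tRNA genes. Among 6-base words present in at least 10% of members, the highest ratio was that of CCGGCA, in 10.7% of members and 3.75% of eligible windows, a ratio of 2.86, or 1.47 when weighted in the same way.

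Members lay in early and late introns much as eligible sequence does. First introns held 192 members (20.8%, interval 18.2-23.5%) and 20.9% of eligible bases. Introns numbered 2 held 165, 1.13 times the density of all eligible introns, those numbered 3 held 130, and later ones 437, 0.941 times. Introns within 5' UTRs held 56 members (6.06%), those between coding exons 863 (93.4%) and those in 3' UTRs 5 (0.541%). The matching shares of eligible bases were 5.59, 93.7 and 0.733%. The median distance to the nearest protein-coding start was 1674 bp, and to the nearest splice site 250 bp.

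Introns over 5000 bp held 165 members at 44.3 per Mb, 1.27 times the density of all eligible introns. Introns of 501 to 1000 bp held 188 at 30.5 per Mb, 0.876 times. Standardised to GC content, the observed over expected counts of these classes were 1.06 and 0.964. Members' introns had a median length of 1080 bp, and eligible bases lay in introns of a median of 953 bp. The shortest intron with a member was in tdc-1, 40 bp, and the longest in cox-6B.

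The 924 members lay in 819 host genes, 4.88% of the 16775 protein-coding genes with eligible intron sequence. Of these, 733 held 1 member, 73 held 2, 10 held 3 and 3 held 4 or more. The zinc finger homeobox gene zfh-2 held 6 members in 20.1 kb of eligible intron, spsb-1, a SOCS box gene, 5 in 25.01 kb, and hmr-1, the classical cadherin gene, 4 in 44.6 kb. For 15 members the summit lay in more than 1 gene.

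The members of zfh-2 differed from each other. Their joint signals were 76.1, 71.9, 70.9, 65.5, 64.8 and 63.8, and 2 of them were in the conservative list. In replicate 1 the first 5 had signals of 30.3, 36.7, 33.3, 25.8 and 26.5 and the last was not found, while replicate 2 had 45.1, 38.6, 32.2, 40.97, 38.8 and 30.8. The member at 64.8 held 9 copies of the telomere unit, and the one at 63.8 held 3 copies of CGGCAA. The central 51 bp of each of the 6 occurred once in the genome.

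In spsb-1 the joint signals were 79.3, 62.7, 60.6, 60.4 and 59.1. The first had 60.8 in replicate 2 and was not found in replicate 1. The other 4 were found in both replicates, with 17.9 to 39.1 in replicate 1 and 26.8 to 43.1 in replicate 2. In hmr-1 they were 74.97, 53.6, 53.4 and 52.8, and the one at 53.6 was found in replicate 2 only and that at 53.4 in replicate 1 only. Genes with 3 members were lin-14, hecw-1, ldb-1, kcnl-1, elf-1, Y55F3BR.2, nhr-15, hlh-30, daf-12 and dkf-2. They include the heterochronic factor gene lin-14 (highest joint signal 80.2), the TFEB homologue hlh-30 (60.8), the nuclear receptor gene daf-12 (59.0) and the protein kinase D gene dkf-2 (54.3).

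Host genes were grouped by 16 lists of gene symbols, so a list's name need not fit every gene in it. Of 78 axon guidance and neural adhesion genes 18 held a member (23.1%, interval 14.3-34%), against 4.88% of all genes. These genes had 6.09 kb of eligible intron each, against 1.58 kb, and their density per Mb was 1.33 times that of all eligible introns. At equal GC content the observed over expected count was 0.9745. The strongest were syg-2 (78.4), an immunoglobulin-type synaptic adhesion gene, hmr-1 (74.97), sax-7 (70.1) and the semaphorin gene mab-20 (64.5).

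Lists of neuronal function did not all lie on 1 side. Synaptic vesicle and neuropeptide genes had members in 18 genes (8.96%), at 1.38 times the density and 1.30 times the count expected from GC content, led by syd-9 (67.6), gpa-18 (67.2), nlp-21 (66.0) and flp-14 (64.8). Ion channel genes had members in 19 of 288, at 0.624 times the density and 0.740 times the GC-expected count, led by the potassium channel genes twk-43 (78.4) and kqt-1 (76.5). Neurotransmitter and peptide receptor genes had members in 8 of 130, at 0.546 and 0.464 times, led by lat-1 (60.9), a latrophilin. The last list rests on 9 members, and its GC-expected ratio on 5 with a wholly eligible window.

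Chemoreceptor genes, matched by symbol, held 47 members in 47 of 1308 genes, at 1.51 times the density and 1.26 times the GC-expected count. Among the 47 are src-2, a tyrosine kinase gene, and srdh-1, whose symbols fit the pattern without naming a chemoreceptor family. The strongest were srw-100 (110.5), sri-71 (74.96), srz-74 (74.9) and srz-64 (74.4). They have little intron sequence, 0.684 kb per gene. Of these members 6 lie near F37B4.10, and with both transgene loci left out 41 members remained, at 1.35 times the density. The GC-expected ratio of 1.26 rests on 34 members with a wholly eligible window and was taken with these loci included.

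Protein kinases had members in 21 of 159 genes, led by cmk-1, pkg-2 (79.4), the VEGF receptor-like gene ver-1 (75.3) and mbk-2 (73.7), a DYRK kinase gene. Muscle sarcomere genes had members in 11 of 81, among them act-4 (73.1), ttn-1 (70.1), unc-95 (69.7) and zyx-1 (68.8). Homeobox genes had them in 6 (5.94%), led by ceh-9 (82.7) and zfh-2, nuclear hormone receptor genes in 9 of 266, led by nhr-3 (69.2), and other transcription factor genes in 16 of 211, led by the bZIP gene zip-7 (78.4), tra-1, pqm-1 (71.3) and grh-1 (68.3). Genes for small GTPases and their regulators had them in 13 (12.9%), led by gap-3 (84.4). The share was 13.2% for kinase genes and 13.6% for sarcomere genes, against 4.88% of all genes. Kinase, sarcomere and GTPase genes had 4.13, 3.97 and 4.30 kb of eligible intron each, against 1.58 kb over all genes. The densities of these lists ran from 0.910 (nuclear hormone receptors) to 1.29 (homeobox genes) times that of all eligible introns. Of the 11 homeobox members 6 lay in zfh-2. Observed over GC-expected counts were 1.02 for kinases, 0.824 for sarcomere genes and 1.09 for homeobox genes. They were 0.962 for nuclear hormone receptors, 1.12 for other transcription factors and 0.913 for GTPase genes.

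The remaining lists held 10 members or fewer each. Extracellular matrix genes had members in 9 of 106, led by the glypican gene lon-2 (71.4), at 0.941 times the density and 1.085 times the GC-expected count. Chromatin regulators had them in 8 of 142, led by zfp-1 (65.2), at 0.809 and 0.927 times. Germline and early embryo genes had them in 5 of 143, led by the Vasa-type helicase gene glh-2 (68.9), at 0.802 and 0.433 times. The GC-expected ratios of these lists rest on 7, 5 and 2 members with a wholly eligible window, in the order given. Cuticle collagens had them in 3 of 108, led by col-52 (64.5), at 2.002 and 1.79 times, the highest of the 16 lists by both measures and resting on 3 members. None of 31 ribosomal protein genes with eligible intron held one, in 0.00347 Mb of such sequence.

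Noncoding genes near members were counted only in part, since the rule had removed every summit inside an exon of any gene, noncoding ones included. The matching shares for eligible introns and other rows were not computed, so the counts are a description. Within 200 bp of the summit, 46 members had a gene annotated as ncRNA, 4 a piRNA gene, 4 a pseudogene and 1 a microRNA gene, cel-mir-58a, inside Y67D8A.2 (signal 74.3). The lincRNA and antisense RNA classes had 0 of 924, which allows a share of up to 0.398% each.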

How the data were processed

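Peak lists from ChIP-seq of 2 replicates were used. The authors made them from filtered alignments with a control library, per the README files deposited beside the lists. The aligner, peak caller and read numbers were not given in the sources used here, and depth is unknown. The signal of each peak is the authors' value, deposited without a stated scale. The IDR was deposited as −log10 values. The 16 unnamed columns of values per input in the joint lists were not used.

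Summits were placed on WBcel235 (chromosome lengths match ce11) with Ensembl release 115. A member was found in another list if that list had a summit within 138 bp. Introns were assigned to the longest transcript. Eligible introns were read in 218539 windows of 101 bp. Expected counts standardise members per window over 10 classes of GC content, for 694 members whose whole window is eligible. Intervals are exact (Clopper-Pearson, 95%) and cover counting error only. With 1 group, no test was made.

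The members, gene lists and words were chosen with earlier results of these data known. Genes named are the 25 members of highest signal, those at the limit, genes with at least 4 members, up to 4 genes per list by signal, and members sharing sequence. Others were named after their values were seen, among them genes with 3 members, those of the repeats and those near F37B4.10. Alternatives were other numbers of rows, the other joint list, each replicate's own list, other promoter and small RNA distances, other windows, and leaving out the transgene loci, close summits or soft-masked summits. GC standardisation and leaving out repeated members were added after seeing the data, as was the chemoreceptor density without the transgene loci. The positional rule and the repeat measures were tested on simulated data. Software comprised matplotlib 3.10.9, scipy 1.17.1, pandas 2.3.3, numpy 2.4.6 and Python 3.11.15.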

Additional observations from a re-analysis of the deposited data

How the results depend on the processing

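Counts of members follow the number of rows taken. With 2500, 1000 and 10000 rows, introns held 440, 159 and 2000 summits, and the conservative share was 27.7, 64.15 and 6.3%. The density relative to all summits was 0.601 with 1000 rows and 0.756 with 10000, and the median GC content was 46.5, 48.5 and 43.6%. With 1000 rows the first-intron share was 14.5%, and with 2500 rows the host genes numbered 403. Leaving out soft-masked intron sequence gave 596 members, a median GC content of 46.5% and 3.02% with shared sequence, against 5.30%. Their density in unmasked eligible introns was 0.952 times that of all 5000 rows over the whole genome. Soft-masked sequence and its summits stayed in that reference, so this value does not compare like with like. Leaving out members with CGGCAA repeats gave a soft-masked share of 31%. With each replicate's own list in place of the joint one, members numbered 967 to 976, relative density 0.731 to 0.738, conservative share 12.30 to 12.31%, soft-masked share 33.7 to 35.8%, median GC content 43.6 to 44.6%, first-intron share 19.9 to 21.6% and share with shared sequence 4.20 to 4.76%. The main results stayed within the counting interval or 1.5 times in 83 of 102 alternatives. Several of these could hardly move a result, since they kept nearly all members. Leaving out close summits kept all 924, a small RNA distance of 500 bp kept 919, and leaving out the transgene loci kept 913. Of 61 alternatives for single words, gene lists and groups of introns, 37 moved, mostly with window length and number of rows. Introns had a lower density than all summits in every alternative run. No paired analysis was possible because there is 1 group. The control library was not analysed here, and depth limits are unknown.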
